A study of Mus musculus with 24 samples.

Results

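The genes described here are 48 developmental transcription factor genes of the Pax, Lhx, Nkx, Dlx, Irx, Emx, En, Msx, Barhl, Neurog, Olig, Sox and Tbx families, with Six2, Six3, Six6 and Isl1. They were taken by name, and each deposited interval that overlapped a gene body, or the 5 kb on either side of it, was assigned to the gene (gene spans from RefSeq, assembly GRCm38.p6). This gave 354 of 299780 intervals in the Ctrl table and 348 of 272268 in the Paused table, and all 48 genes had at least 1 interval in each, among 19029 and 18817 protein-coding genes that did. A gene held 2 to 35 intervals in Ctrl and 1 to 36 in Paused, with a median of 5 in both. Pax5 held the most (35 and 36) and Olig1 the fewest (2 and 1). The assay was ATAC-seq, which maps open chromatin through the sites that the Tn5 transposase can cut. All libraries came from the E14 mouse embryonic stem cell line, kept on gelatin with serum and leukemia inhibitory factor. Wild type cells (WT) were set beside a pair of Smad2 knockouts, Smad2_KO1 and Smad2_KO2, each 1 line. Each line was grown without inhibitor (Ctrl) or with 200 nM of INK128, an inhibitor of the mTOR kinase, for 12 hours (Paused). Every group had 4 libraries of 50000 cells each, 24 in all. All the cells are thus E14 stem cells in the same medium, and the knockout lines carry no other change that the labels name.

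Smad2 is a cytoplasmic protein that receptors of the Nodal and Activin ligands phosphorylate; it then enters the nucleus with Smad4 and binds DNA together with partners such as FOXH1. The genes described here encode DNA-binding proteins that set up the regions of the neural tube, the eye, the kidney, the heart, the limbs and the face later in development. In embryonic stem cells most such genes are held silent by Polycomb proteins at CpG-rich starts, with little transcription but measurable accessibility. ATAC-seq reads in an interval count cut fragments over all the cells of a library, so fewer cells with open chromatin and less access per cell cannot be told apart.

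The start windows of Lhx4, Pax7, Six6 and Emx2 are shown because the interval over each was lower in both knockout lines in Paused, and no other start-window interval passed. RefSeq start windows, 250 bases before to 50 after a start, were given for 38 of the 48 genes (46 windows). Each is printed 5' to 3' on the gene's strand, from GRCm38.p6, and capitals mark CAGAC or its reverse complement GTCTG, the short sequence that Smad proteins are known to bind. The Lhx4 window is chr1:155741978-155742277 (minus strand), that of Pax7 is chr4:139832919-139833218 (minus strand), that of Six6 is chr12:72939632-72939931 (plus strand) and that of Emx2 is chr19:59458440-59458739 (plus strand).
Lhx4: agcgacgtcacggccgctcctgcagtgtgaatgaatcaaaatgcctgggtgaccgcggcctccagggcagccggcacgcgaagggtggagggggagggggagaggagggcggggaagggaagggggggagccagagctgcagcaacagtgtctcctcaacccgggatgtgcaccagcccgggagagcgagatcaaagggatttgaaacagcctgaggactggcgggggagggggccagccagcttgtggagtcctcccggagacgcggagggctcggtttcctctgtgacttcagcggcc
Pax7: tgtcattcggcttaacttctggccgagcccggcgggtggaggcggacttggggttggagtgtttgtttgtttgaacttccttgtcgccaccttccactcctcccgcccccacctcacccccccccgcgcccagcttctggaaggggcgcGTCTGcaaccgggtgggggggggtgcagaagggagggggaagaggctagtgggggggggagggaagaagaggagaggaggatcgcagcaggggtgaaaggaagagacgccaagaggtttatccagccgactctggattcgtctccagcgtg
Six6: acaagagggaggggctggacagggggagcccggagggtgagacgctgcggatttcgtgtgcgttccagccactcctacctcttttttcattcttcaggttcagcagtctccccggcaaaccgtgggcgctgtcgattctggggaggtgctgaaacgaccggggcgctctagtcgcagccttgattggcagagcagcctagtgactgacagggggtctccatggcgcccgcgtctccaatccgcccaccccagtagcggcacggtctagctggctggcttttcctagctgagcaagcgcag
Emx2: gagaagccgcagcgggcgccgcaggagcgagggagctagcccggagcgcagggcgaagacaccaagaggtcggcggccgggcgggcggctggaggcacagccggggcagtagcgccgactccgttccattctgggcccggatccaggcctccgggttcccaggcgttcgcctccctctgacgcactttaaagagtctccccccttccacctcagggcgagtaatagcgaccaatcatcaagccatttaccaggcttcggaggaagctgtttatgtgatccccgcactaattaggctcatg
Capitals appear in the Pax7 window alone. Another sequence bound by Smad proteins, GGCGC or its reverse complement GCGCC, is not marked. It has 0 matches in the Lhx4 window, 2 in Pax7, 4 in Six6 and 3 in Emx2, with overlapping matches on both strands counted. The windows hold 19, 17, 20 and 26 CpG dinucleotides in the order printed, and their GC content is 66.3, 63.7, 62.3 and 64.3%.

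Over all 46 windows of these genes the median was 19.5 CpG and 62.0% GC, against 7 CpG and 52.7% GC over 32851 windows of the reference table. CAGAC or GTCTG was in 29 of the 46 windows (63.0%) and in 49.6% of all windows. The GC-rich Smad sequence GGCGC, or GCGCC on the other strand, was in 33 (71.7%) and in 36.9% of all. The palindrome GTCTAGAC, which holds neither CAGAC nor GTCTG, was in 1 window, that of Pax2, against 0.213% of all windows. The FOXH1 sequence AATCCACA (reverse complement TGTGGATT) was in 1, that of Six3, against 0.855% of all, and its other form AATACACA (TGTGTATT) was in none of the 46, against 0.980% of all. A match describes these letters in this window and shows no binding.

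Values are normalized reads, that is, reads in an interval divided by 1 factor per library. Reads in intervals were 11.8 to 16.5 M (megareads) per library in Ctrl and 11.5 to 20.0 M in Paused. The labels do not say whether the 4 libraries of a group came from separate cultures, so p-values measure the spread between these samples, which may be technical. The part of Smad2 that was deleted is not in the labels, and signal at the gene therefore does not check them. Summed over its intervals, Smad2 averaged 489.8 ± 38.8 (WT), 532 ± 34.8 (Smad2_KO1) and 491 ± 11.8 (Smad2_KO2) normalized reads in Ctrl (SD, n = 4 each). Of 7 embryonic stem cell marker genes, all had accessible intervals, although Pou5f1 had only 1. Their summed signal in Ctrl was 8017 to 9060 (WT), 8604 to 9368 (Smad2_KO1) and 8287 to 8959 (Smad2_KO2).

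An interval was called when the adjusted p of limma on log2(value + 1) was under 0.05 in both knockout lines against WT, with the same sign. The comparisons of the lines share the 4 WT libraries. In Ctrl, 22 of the 350 tested intervals of these genes were called (6.29%, against 7.15% of all 282089 tested). Of these 15 were lower in the knockout lines and 7 higher, against a background of 3.2% lower and 3.95% higher. In Paused, 38 of 344 were called (11.0%, against 13.9% of all 260539), 29 lower (background 4.92%) and 9 higher (background 9.01%). The total share of called intervals was thus near or below that of the table. With the deposited scaling and all libraries, the calls of these genes were mostly lower and those of the table mostly higher. With DESeq2 size factors in place of that scaling, the split for these genes was 4 higher and 29 lower in Ctrl and 6 and 50 in Paused, and with TMM factors 4 and 27, and 6 and 49. The calls of the table were then mostly lower too. With size factors 2.81% of all intervals were higher and 4.84% lower in Ctrl, and 5.90% and 8.87% in Paused, and with TMM factors 2.86% and 4.72%, and 6.21% and 8.26%. The split in Ctrl also depended on single libraries. It was 9 higher and 8 lower without WT replicate 1 (3.56% and 2.77% of all intervals). It was 8 higher and 9 lower without WT replicate 2 (4.34% and 3.25% of all) or Smad2_KO1 replicate 2 (3.10% and 2.79%).

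Line by line, Smad2_KO1 differed from WT at 42 intervals in Ctrl (33 lower; background 11.6% in both directions) and 54 in Paused (37 lower; background 19.4%). Smad2_KO2 differed at 31 in Ctrl (22 lower; background 10.7%) and 53 in Paused (40 lower; background 19.3%). No interval of these genes differed between the knockout lines by limma, edgeR or DESeq2 (background 0%), although 12 in Ctrl and 4 in Paused had an unadjusted limma p under 0.05. All 8 knockout libraries were below all 4 WT libraries at 25 intervals in Ctrl (background 3.32%) and 23 in Paused (background 4.2%). They were above WT at 7 in each, against 4.16% and 7.25% of all tested intervals.

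Most intervals of these genes that did not pass also had a negative fold change. The mean log2 fold change of the lines was negative at 237 of 350 in Ctrl (67.7%, against 41.1% of all tested) and at 219 of 344 in Paused (63.7%, against 39.1%). Its median was -0.11 in both treatments, against 0.08 and 0.12 over all tested intervals. The intervals of these genes were also stronger than most, with a median level of 38.0 against 22.4 normalized reads in Ctrl and 45.0 against 25.7 in Paused, and over all intervals the change moved with level. All intervals were ranked by level and cut into 10 classes of equal size, class 10 being the strongest. In class 10 the median was -0.08 for these genes and -0.07 for all in Ctrl, and -0.14 for both in Paused. In class 8 it was -0.20 against 0.03 in Ctrl and -0.12 against 0.03 in Paused, and in class 1 it was 0.11 against 0.23 and 0.02 against 0.36. In class 9, which held the most intervals of these genes, it was -0.17 against -0.03 in Ctrl and -0.12 against -0.05 in Paused. In Ctrl the distance was wider in class 4 (-0.15 against 0.17) and class 5 (-0.18 against 0.15). In class 10 these genes thus lay at or near the median of all intervals. In every other class they lay below it in both treatments, by differing amounts. Among the weak classes of Paused, class 1 held only 16 and class 3 only 17 intervals of these genes, and class 3 was at 0.23 against 0.26. The part of level in the lower calls was not tested.

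**Figure D1:**
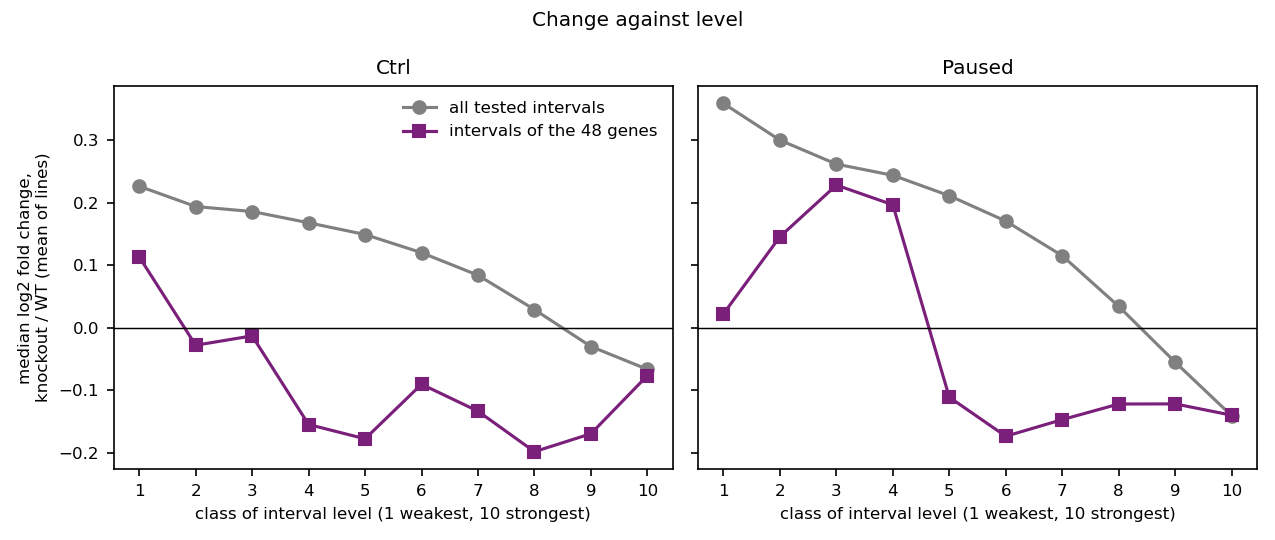
Median log2 fold change of knockout over WT (mean of both lines, y axis) in 10 equal classes of the interval level (x axis, mean of 12 libraries), for the intervals of the 48 genes (purple squares) and all tested intervals (grey circles). In Ctrl the squares fall to -0.20 in class 8 while the circles are at 0.03, and in class 10 both are near -0.07.

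Summed over its intervals, the signal of a gene fell in both knockout lines for 5 of the 48 genes in Ctrl (Pax3, Pax6, Dlx5, Dlx6 and Irx3; background 4.41% lower) and for 11 in Paused (Pax3, Pax6, Pax7, Pax8, Nkx6-1, Dlx1, Dlx2, Six6, Emx2, Msx1 and Barhl1; background 15.9%). Of all genes tested, 7.18% were called in Ctrl and 21.9% in Paused. None of the 48 rose in either treatment by limma, against 2.77% and 5.94% of all genes. By edgeR and DESeq2 that count was also 0, where edgeR called 5.72% and 11.9% of all genes higher and DESeq2 4.74% and 9.61%, and 0 genes were higher in both lines at an unadjusted p under 0.05. Line by line, 10 gene sums passed in Smad2_KO1 (background 10.7%) and 5 in Smad2_KO2 (background 10.1%) in Ctrl, and 11 (background 26%) and 17 (background 28.6%) in Paused. All 8 knockout libraries lay below all WT libraries for 7 genes in Ctrl (Dlx5, Dlx6, En2, Irx3, Lhx3, Pax3 and Pax7; background 5.82%) and 5 in Paused (Dlx1, Dlx2, Nkx6-1, Pax3 and Six6; background 11.4%). They lay above WT for Lhx4 alone in Ctrl (background 2.97%) and for 0 genes in Paused (background 4.71%). Over all 48, called or not, the fold change was negative in both lines for 39 genes in Ctrl and 43 in Paused. It was positive in both lines for 4 and 2. By the mean of the lines, 87.5% of these genes were negative in Ctrl and 89.6% in Paused, against 58.1% and 65.0% of all genes. The median over the 48 genes was -0.13 in Ctrl and -0.12 in Paused, against -0.02 and -0.06 over all genes. The mean change of the lines spanned -0.35 to 0.11 in Ctrl, and -0.39 to 0.04 in Paused. It was negative in both treatments for 37 genes and positive in both for 0.

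**Figure D2:**
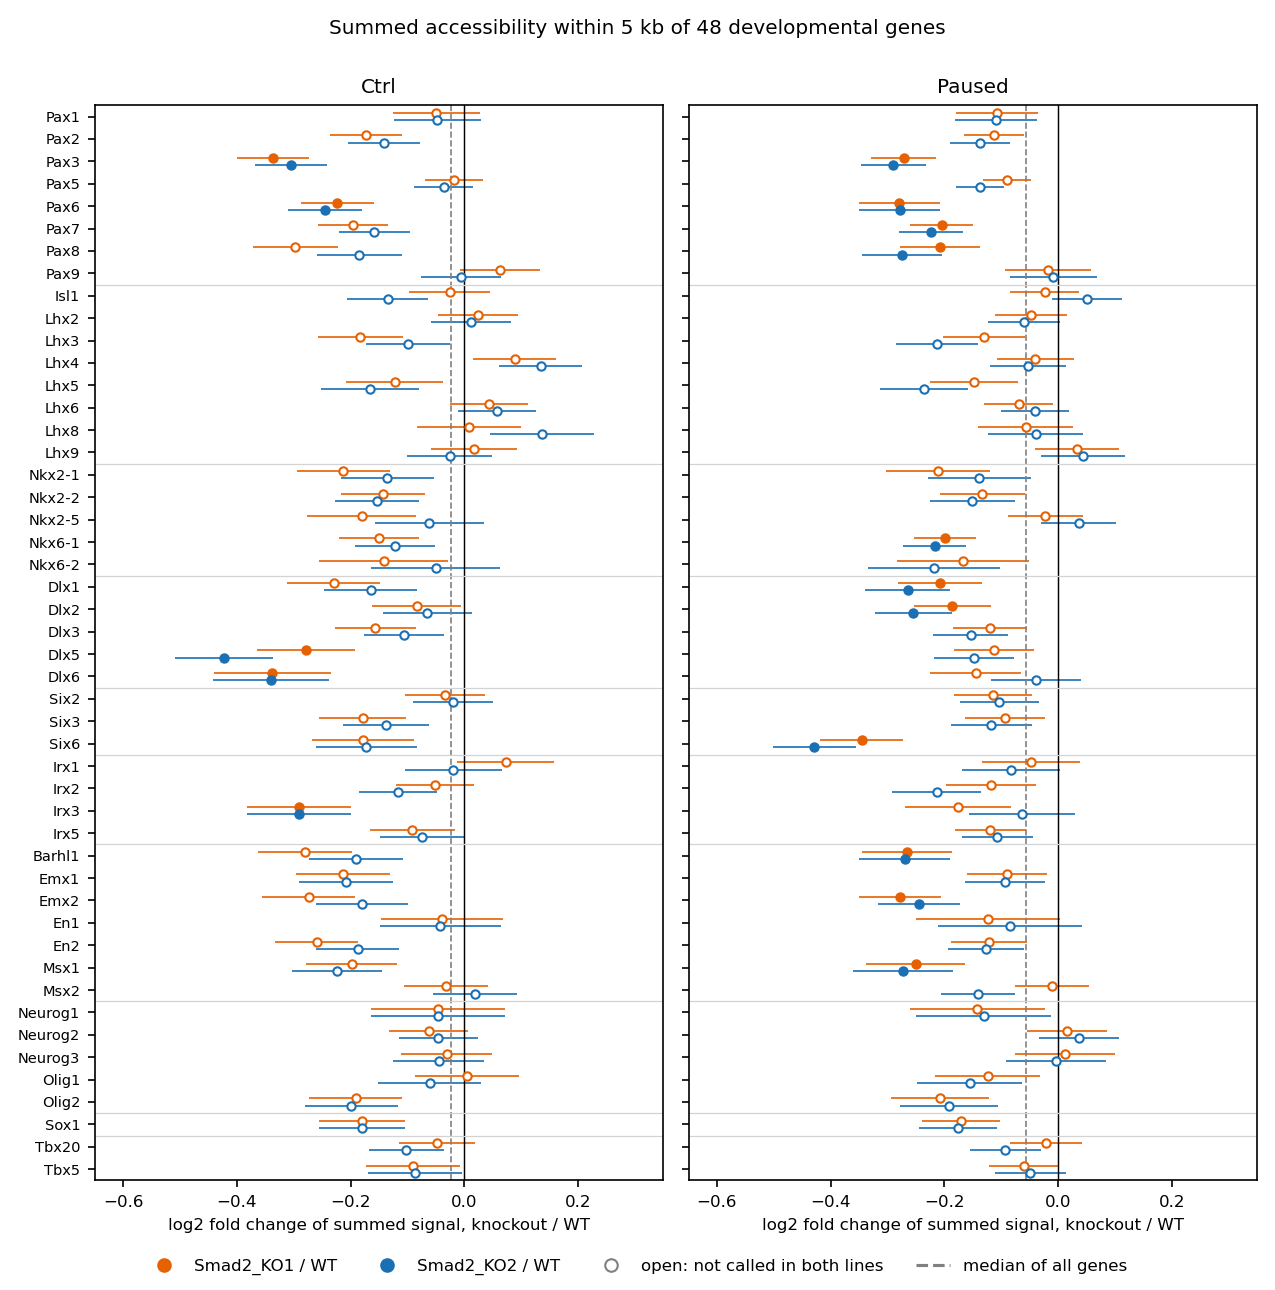
Log2 fold change of the summed signal of each gene, knockout over WT (x axis), with its SE, for 48 genes in rows by family; filled points are genes called in both lines and the dashed line is the median of all genes. Pax3 is filled on the left in both panels, and no filled point lies to the right of 0.

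Levels between genes were compared per kb of gene span plus flanks. In WT in Ctrl the lowest was Tbx5 with 4.15 normalized reads per kb, the highest Neurog2 with 46.7, and the median 19.1. In WT in Paused the lowest was En1 with 6.59, the highest Nkx6-1 with 53.4, and the median 21.6. Neurog2, a proneural factor, and Nkx6-1 were followed in Ctrl by Msx2, Irx5 and Sox1. The long genes Pax3, Pax8, Lhx4 and Lhx8 were among the lowest per kb.

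Among the Pax genes, Pax3, a factor of the dorsal neural tube, the neural crest and muscle progenitors, had lower summed signal in both knockout lines and in both treatments. In Ctrl its sums were 819, 801, 804 and 838 (WT), 649.7, 617, 695 and 623 (Smad2_KO1) and 672, 668, 596 and 708 (Smad2_KO2). All 8 knockout libraries lay below the 4 WT libraries, and the log2 fold changes (± SE) were -0.34 ± 0.06 in Smad2_KO1 (adjusted p = 2.78e-04) and -0.31 ± 0.06 in Smad2_KO2 (adjusted p = 9.48e-04). In Paused the sums were 774, 734, 797 and 801 (WT), 641, 606, 654 and 671 (Smad2_KO1) and 593, 646, 655 and 648 (Smad2_KO2), again with no overlap. The Paused changes were -0.27 ± 0.06 in Smad2_KO1 (adjusted p = 7.25e-04) and -0.29 ± 0.06 in Smad2_KO2 (adjusted p = 3.26e-04). Both calls held without each library and under each other setting tried but 1. Neither passed when a change of 1 or more on the log2 scale was also asked for.

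Of its 19 intervals in Ctrl, 4 were called, all lower and all inside the gene body, and 2 of 15 in Paused. At chr1:78140520-78140720 (mm10, as for all intervals here) the Ctrl libraries held 60.9, 63.6, 72.3 and 79.8 (WT), 43.6, 38.0, 46.9 and 33.5 (Smad2_KO1) and 41.1, 39.1, 18.1 and 42.3 (Smad2_KO2) normalized reads, and every knockout library was below WT. The change was -0.76 ± 0.19 in Smad2_KO1 (adjusted p = 0.00496) and -1.02 ± 0.19 in Smad2_KO2 (adjusted p = 1.93e-04). In Paused the matching interval, chr1:78140511-78140711, averaged 47.3 ± 10.5 (WT), 27.4 ± 9.44 (Smad2_KO1) and 24.8 ± 6.48 (Smad2_KO2) (SD, n = 4), with 1 Smad2_KO1 library above the lowest WT libraries. Its changes were -0.81 and -0.91. Omitting Smad2_KO1 replicate 2 ended the call (mean change -0.96 to -0.75 over all omissions). At chr1:78181974-78182174 in Ctrl the libraries held 32.0, 39.4, 41.6 and 33.4 (WT), 17.1, 17.5, 24.4 and 19.6 (Smad2_KO1) and 23.1, 23.7, 18.1 and 14.1 (Smad2_KO2), without overlap, with changes of -0.87 and -0.88. The Paused interval chr1:78167886-78168086 averaged 35.6 ± 5.88 (WT), 17.3 ± 5.48 (Smad2_KO1) and 16.5 ± 3.37 (Smad2_KO2), also without overlap, with changes of -1.04 ± 0.24 in Smad2_KO1 (adjusted p = 0.00179) and -1.07 ± 0.24 in Smad2_KO2 (adjusted p = 0.00136). The calls at chr1:78146797-78146997 and chr1:78157598-78157798 rested on single libraries. For the former (-1.06 and -1.11) its call was lost without any one of WT replicates 3 and 4, or Smad2_KO2 replicate 2 (mean change -1.33 to -0.81 over all omissions). For the latter (-0.81 and -0.68) its call was lost without any one of WT replicates 1, 2, 3 and 4, Smad2_KO1 replicates 2 and 4, or Smad2_KO2 replicates 1, 3 and 4 (mean change -0.83 to -0.67 over all omissions). The call ended with DESeq2 too.

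Pax6, a factor of the eye and the forebrain, fell in both treatments as well. Its summed signal averaged 1005 ± 66.9 (WT), 861 ± 62.1 (Smad2_KO1) and 849 ± 75.9 (Smad2_KO2) in Ctrl and 622 ± 65.4 (WT), 511 ± 14.7 (Smad2_KO1) and 513 ± 54.9 (Smad2_KO2) in Paused (SD, n = 4 each). The sums of Ctrl and Paused add different sets of intervals, so their levels are not to be compared. Single knockout libraries reached into the WT range in both treatments. The Ctrl changes were -0.22 ± 0.06 in Smad2_KO1 (adjusted p = 0.0182) and -0.24 ± 0.06 in Smad2_KO2 (adjusted p = 0.00973). It was no longer called without any one of WT replicate 2, Smad2_KO1 replicate 1, or Smad2_KO2 replicates 1 and 3 (mean change -0.27 to -0.20 over all omissions). The Paused changes were -0.28 ± 0.07 in Smad2_KO1 (adjusted p = 0.00388) and -0.28 ± 0.07 in Smad2_KO2 (adjusted p = 0.00355), and the call held without each library. Of its intervals, 1 inside the gene body was called in each table. In Paused, chr2:105677806-105678006 held 269.9, 243, 192 and 219 (WT), 151, 135, 134 and 134 (Smad2_KO1) and 131, 155, 128 and 159.7 (Smad2_KO2), and the groups did not overlap. Its change was -0.72 ± 0.11 in Smad2_KO1 (adjusted p = 1.31e-05) and -0.68 ± 0.11 in Smad2_KO2 (adjusted p = 3.52e-05). In Ctrl, chr2:105677805-105678005 averaged 262 ± 36.5 (WT), 196 ± 19.6 (Smad2_KO1) and 203 ± 27.3 (Smad2_KO2) with changes of -0.41 and -0.36. Without any one of WT replicate 2, or Smad2_KO2 replicates 1 and 3 it did not pass (mean change -0.45 to -0.30 over all omissions). With cyclic loess it was not called either.

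Pax8, a factor of the thyroid and the kidney, was lower at the same pair of intervals inside its gene body in both tables. In Ctrl, chr2:24443345-24443545 held 81.2, 106, 99.7 and 90.6 (WT), 56.4, 66.8, 60.0 and 56.6 (Smad2_KO1) and 59.1, 65.5, 53.1 and 65.4 (Smad2_KO2), with no overlap and a change of -0.64 ± 0.14 in Smad2_KO1 (adjusted p = 0.00138) and -0.62 ± 0.14 in Smad2_KO2 (adjusted p = 0.00197). In Paused, chr2:24443346-24443546 held 82.0, 66.6, 69.1 and 86.1 (WT), 45.6, 46.2, 42.3 and 45.7 (Smad2_KO1) and 43.0, 44.3, 51.6 and 47.0 (Smad2_KO2), again without overlap, with a change of -0.74 ± 0.15 in Smad2_KO1 (adjusted p = 4.77e-04) and -0.69 ± 0.15 in Smad2_KO2 (adjusted p = 9.57e-04). Both of its calls held without each library. The other interval, 35393 bases downstream of the start in Ctrl, was weak, and its size of change is given as a description. In Ctrl, chr2:24440106-24440306 held 21.4, 15.2, 24.1 and 36.7 (WT), 7.69, 8.22, 5.62 and 4.62 (Smad2_KO1) and 4.01, 3.64, 5.31 and 8.05 (Smad2_KO2), every knockout library below every WT library, with changes of -1.71 and -2.003. In Paused, chr2:24440151-24440351 held 13.0, 8.59, 35.6 and 49.0 (WT), 5.70, 4.53, 3.46 and 2.98 (Smad2_KO1) and 3.00, 1.50, 14.6 and 4.38 (Smad2_KO2), with changes of -2.13 and -2.05. There 1 Smad2_KO2 library lay above the lower WT libraries, and the WT libraries themselves differed by several fold. Only 4 libraries held a value of 10 or more, which were the 4 WT libraries in Ctrl, and 3 WT libraries and Smad2_KO2 replicate 3 in Paused. The libraries in which it was high thus let it be tested, and without any one of those libraries it could not be. It was called in the other 8 omissions of each table, and also with no filter on low values. Over its 8 Ctrl intervals the summed signal of Pax8 averaged 440.1 ± 20.6 (WT), 358 ± 18.8 (Smad2_KO1) and 388 ± 28.7 (Smad2_KO2) in Ctrl, where Smad2_KO2 did not pass (adjusted p = 0.106). In Paused it averaged 525 ± 62.0 (WT), 453 ± 10.6 (Smad2_KO1) and 432 ± 15.0 (Smad2_KO2) and passed in both lines (-0.21 and -0.27). This call did not hold without any one of WT replicates 1 and 4, or Smad2_KO1 replicates 1 and 4 (mean change -0.30 to -0.17 over all omissions). Nor was it called with DESeq2.

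Pax5, the factor of B cell commitment that also acts in the midbrain, changed in both directions within 1 gene. Its summed signal averaged 1819 ± 81.7 (WT), 1797 ± 104 (Smad2_KO1) and 1774 ± 85.9 (Smad2_KO2) in Ctrl, without a call. In Paused it averaged 2430 ± 168 (WT), 2279 ± 39.8 (Smad2_KO1) and 2206 ± 83.6 (Smad2_KO2), where Smad2_KO2 passed (adjusted p = 0.0126) and Smad2_KO1 did not (adjusted p = 0.107). Beneath these sums, 5 of 35 intervals were called in Ctrl (1 lower and 4 higher) and 6 of 36 in Paused (3 lower and 3 higher), all inside the gene body. In Ctrl, chr4:44602254-44602454, 108340 bases downstream of the start, held 100.4, 95.0, 147 and 147 (WT), 63.3, 83.3, 86.2 and 57.8 (Smad2_KO1) and 82.2, 78.3, 53.1 and 59.4 (Smad2_KO2), with all knockout libraries below WT. The change was -0.73 ± 0.15 in Smad2_KO1 (adjusted p = 9.49e-04) and -0.83 ± 0.15 in Smad2_KO2 (adjusted p = 2.36e-04). In Paused, chr4:44602252-44602452 held 113, 120.2, 205 and 192 (WT), 71.3, 83.4, 95.9 and 80.5 (Smad2_KO1) and 97.9, 96.0, 90.9 and 89.7 (Smad2_KO2), without overlap, with changes of -0.88 ± 0.14 in Smad2_KO1 (adjusted p = 3.52e-05) and -0.70 ± 0.14 in Smad2_KO2 (adjusted p = 6.38e-04). Nearer to the start, chr4:44626229-44626429 was higher in the knockout lines. Its Ctrl libraries held 11.8, 13.4, 11.0 and 11.9 (WT), 29.1, 27.8, 24.4 and 26.6 (Smad2_KO1) and 28.1, 40.0, 22.3 and 26.2 (Smad2_KO2), with all knockout libraries above WT, and the change was 1.10 ± 0.22 in Smad2_KO1 (adjusted p = 5.52e-04) and 1.19 ± 0.22 in Smad2_KO2 (adjusted p = 2.40e-04). In Paused, chr4:44626271-44626471 averaged 15.4 ± 6.30 (WT), 33.8 ± 4.89 (Smad2_KO1) and 27.9 ± 6.57 (Smad2_KO2) with changes of 1.17 and 0.88, and 1 Smad2_KO2 library fell inside the WT range. Leaving out WT replicate 1 ended this call (mean change 0.74 to 1.21 over all omissions). The same was so with DESeq2.

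On the other side of that lower interval, chr4:44585736-44585936 held 11.8, 15.2, 16.4 and 18.3 (WT), 29.1, 37.0, 30.9 and 31.2 (Smad2_KO1) and 28.1, 40.0, 34.0 and 32.2 (Smad2_KO2) in Ctrl and was also higher without overlap. Its change was 1.02 ± 0.20 in Smad2_KO1 (adjusted p = 5.58e-04) and 1.08 ± 0.20 in Smad2_KO2 (adjusted p = 2.87e-04). In Paused, chr4:44585711-44585911 held 19.4, 23.6, 16.2 and 23.8 (WT), 47.5, 36.3, 56.2 and 35.8 (Smad2_KO1) and 34.0, 45.7, 37.0 and 40.5 (Smad2_KO2), with no overlap and changes of 1.04 ± 0.19 in Smad2_KO1 (adjusted p = 1.87e-04) and 0.90 ± 0.19 in Smad2_KO2 (adjusted p = 9.78e-04). Both of its calls, and that at chr4:44602254-44602454, held without each library. A further interval, chr4:44562413-44562613 in Ctrl and chr4:44562424-44562624 in Paused, rose by 0.73 and 0.64 and by 0.51 and 0.54. For the Ctrl interval its call was lost without any one of WT replicate 4, or Smad2_KO2 replicates 1, 2 and 3 (mean change 0.51 to 0.77 over all omissions). Its call ended with cyclic loess, a fit of the compared groups alone, edgeR or DESeq2 too. For the Paused interval its call was lost without any one of WT replicate 2, Smad2_KO1 replicates 1, 2 and 4, or Smad2_KO2 replicate 2 (mean change 0.41 to 0.59 over all omissions). It was also not called with size factors, TMM factors, cyclic loess, edgeR or DESeq2. The rise at chr4:44543957-44544157 in Ctrl (0.40 and 0.38) was also among the calls. It lost its call without any one of WT replicate 3, Smad2_KO1 replicate 3, or Smad2_KO2 replicates 1, 2 and 4 (mean change 0.37 to 0.41 over all omissions). The call ended with size factors, TMM factors, edgeR or DESeq2 too. In Paused, chr4:44564692-44564892 averaged 231 ± 30.2 (WT), 170.0 ± 17.6 (Smad2_KO1) and 166 ± 9.66 (Smad2_KO2), fell by 0.44 and 0.47 on the log2 scale and held without each library. The fall at chr4:44549119-44549319 (-0.56 and -0.47) was less stable. The threshold was missed without any one of WT replicate 1, Smad2_KO1 replicate 2, or Smad2_KO2 replicates 1 and 2 (mean change -0.61 to -0.39 over all omissions).

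**Figure D3:**
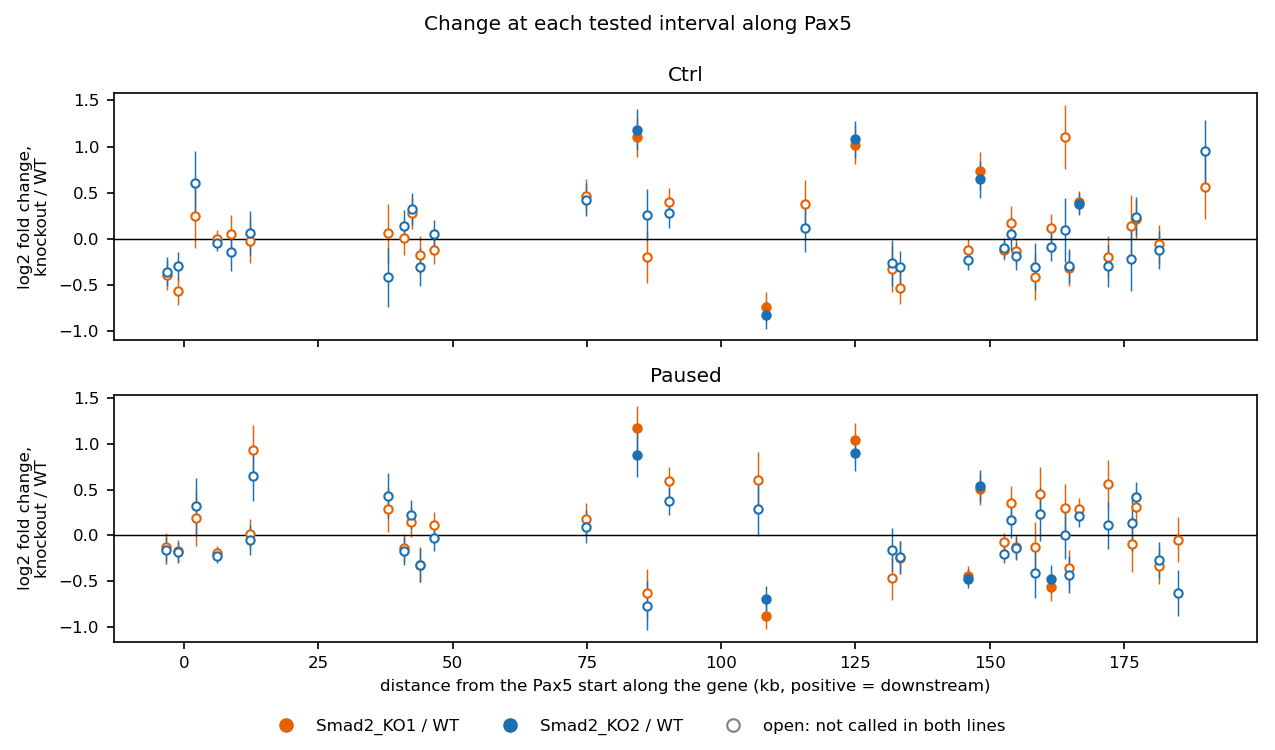
Log2 fold change of knockout over WT (y axis, with SE) at each tested interval of Pax5 against its distance from the start (x axis, kb), for Smad2_KO1 (orange) and Smad2_KO2 (blue); filled points are called in both lines. The fall of -0.73 and -0.83 in Ctrl lies between rises of 1.10 and 1.19 on its left and 1.02 and 1.08 on its right, and the same order is seen in Paused.

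Pax7, a factor of muscle stem cells and the dorsal neural tube, was called in Paused. Its summed signal averaged 1262 ± 122 (WT), 1092 ± 53.9 (Smad2_KO1) and 1078 ± 57.5 (Smad2_KO2) there, with slight overlap of the groups, and the change was -0.20 ± 0.06 in Smad2_KO1 (adjusted p = 0.00632) and -0.22 ± 0.06 in Smad2_KO2 (adjusted p = 0.00285). In Ctrl the change of Smad2_KO2 did not pass (adjusted p = 0.0942), with means of 880.3 ± 37.7 (WT), 769 ± 54.5 (Smad2_KO1) and 789 ± 37.1 (Smad2_KO2). In Paused, 3 of its 31 intervals were called, all lower. At chr4:139826529-139826729, 6339 bases downstream of the start, libraries held 44.3, 48.3, 33.5 and 45.0 (WT), 27.6, 20.8, 21.6 and 17.9 (Smad2_KO1) and 16.0, 20.3, 19.1 and 24.1 (Smad2_KO2), without overlap, and the change was -0.93 ± 0.20 in Smad2_KO1 (adjusted p = 0.00126) and -1.07 ± 0.20 in Smad2_KO2 (adjusted p = 3.03e-04). At chr4:139832772-139832972, over the printed start window, they held 132, 96.6, 107 and 128 (WT), 77.9, 75.2, 89.8 and 79.5 (Smad2_KO1) and 60.9, 66.7, 95.4 and 87.5 (Smad2_KO2), also without overlap, with changes of -0.51 and -0.58. Both calls held without each library. At chr4:139797461-139797661 the changes were -0.91 and -0.76. The omission of WT replicate 4 ended the call (mean change -0.98 to -0.64 over all omissions). Pax2, a kidney and optic stalk factor, had 1 lower and 1 higher interval in Paused. The lower one, chr19:44808818-44809018, averaged 180.1 ± 19.1 (WT), 137 ± 17.2 (Smad2_KO1) and 126 ± 12.8 (Smad2_KO2) with changes of -0.40 and -0.51. The call was lost without Smad2_KO1 replicate 2 (mean change -0.51 to -0.39 over all omissions). The higher one, chr19:44771652-44771852, averaged 12.3 ± 3.67 (WT), 22.5 ± 3.23 (Smad2_KO1) and 21.6 ± 5.29 (Smad2_KO2) with changes of 0.85 and 0.77. Omitting any one of WT replicates 1 and 4, Smad2_KO1 replicate 3, or Smad2_KO2 replicate 3 ended the call (mean change 0.67 to 0.97 over all omissions). With cyclic loess, a fit of the compared groups alone, edgeR or DESeq2 it was not called either. The sclerotome factors Pax1 and Pax9 had no called interval in either treatment.

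The 7 LIM-homeobox Lhx genes and Isl1, which include pituitary, forebrain and motor neuron factors, had few calls. None of their 8 gene sums was called in either treatment, and in Ctrl 4 of them were negative. Lhx4, a pituitary factor, held all of their called intervals except 1 in Lhx9. In Ctrl, chr1:155717435-155717635, 24492 bases downstream of the start, held 33.1, 33.1, 21.9 and 34.5 (WT), 50.4, 49.4, 45.9 and 42.7 (Smad2_KO1) and 46.1, 38.2, 49.9 and 46.3 (Smad2_KO2). Every knockout library was above WT, with changes of 0.62 ± 0.17 in Smad2_KO1 (adjusted p = 0.013) and 0.56 ± 0.17 in Smad2_KO2 (adjusted p = 0.0283). It was no longer called without any one of WT replicate 3, or Smad2_KO2 replicates 1, 3 and 4 (mean change 0.44 to 0.65 over all omissions). Nor was it called with edgeR or DESeq2. In Paused, chr1:155717425-155717625 averaged 46.2 ± 6.17 (WT), 68.6 ± 8.66 (Smad2_KO1) and 62.7 ± 8.63 (Smad2_KO2) with changes of 0.56 and 0.43. Without any one of WT replicates 1 and 3, or Smad2_KO2 replicates 2, 3 and 4 it did not pass (mean change 0.43 to 0.56 over all omissions). The same was so with size factors, TMM factors, cyclic loess, a fit of the compared groups alone, edgeR or DESeq2. Farther downstream, chr1:155704674-155704874 averaged 12.9 ± 4.36 (WT), 24.1 ± 4.13 (Smad2_KO1) and 22.3 ± 2.84 (Smad2_KO2) in Paused and rose by 0.89 and 0.79. This call did not hold without any one of Smad2_KO2 replicates 1 and 2 (mean change 0.77 to 1.04 over all omissions). Its call ended with cyclic loess or DESeq2 too. At the start of the same gene, chr1:155742035-155742235 held 235, 199, 215 and 238 (WT), 179.6, 171, 174 and 182 (Smad2_KO1) and 166, 202, 162 and 184 (Smad2_KO2) in Paused and changed by -0.32 and -0.32, with 1 Smad2_KO2 library inside the WT range. Leaving out any one of WT replicates 1 and 4, Smad2_KO1 replicate 2, or Smad2_KO2 replicates 1 and 3 ended this call (mean change -0.37 to -0.28 over all omissions). It was also not called with cyclic loess. In Lhx9, a gonad factor, chr1:138838289-138838489 averaged 35.6 ± 7.47 (WT), 56.8 ± 6.09 (Smad2_KO1) and 52.5 ± 9.33 (Smad2_KO2) in Paused and rose by 0.67 and 0.55 without overlap of the libraries. It lost its call without any one of WT replicate 1, or Smad2_KO2 replicate 2 (mean change 0.51 to 0.71 over all omissions). The call ended with DESeq2 too.

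Of the 5 Nkx genes, which pattern the ventral neural tube, the pancreas and the heart, Nkx6-1 was called in Paused. Its sums were 872, 785, 816 and 842 (WT), 727, 718, 702 and 739 (Smad2_KO1) and 681, 727, 708 and 733 (Smad2_KO2), with all knockout libraries below WT. The change was -0.20 ± 0.05 in Smad2_KO1 (adjusted p = 0.00683) and -0.22 ± 0.05 in Smad2_KO2 (adjusted p = 0.00303); the call held without each library but not with cyclic loess or without flanks. In Ctrl its sums averaged 699 ± 69.6 (WT), 629 ± 41.4 (Smad2_KO1) and 641 ± 48.5 (Smad2_KO2) and did not pass. Both called intervals of Nkx6-1 lay outside the gene body. At chr5:101667673-101667873 the change was -0.46 and -0.42. The threshold was missed without any one of WT replicates 1 and 4, Smad2_KO1 replicates 1, 2 and 3, or Smad2_KO2 replicates 1 and 4 (mean change -0.48 to -0.39 over all omissions). At chr5:101657723-101657923 it was -0.62 and -0.60. The omission of any one of WT replicate 3, Smad2_KO1 replicates 1 and 2, or Smad2_KO2 replicates 1 and 2 ended the call (mean change -0.70 to -0.48 over all omissions). Nkx2-2, a ventral neural and pancreatic factor, had 1 called interval, chr2:147182714-147182914 in Ctrl, which averaged 52.6 ± 4.32 (WT), 36.4 ± 8.98 (Smad2_KO1) and 35.2 ± 9.04 (Smad2_KO2) and fell by 0.55 and 0.59 on the log2 scale. The call was lost without any one of WT replicates 1, 3 and 4, Smad2_KO1 replicates 2 and 3, or Smad2_KO2 replicates 1, 2 and 3 (mean change -0.65 to -0.49 over all omissions). With DESeq2 it was not called either. Nkx2-1, Nkx2-5 and Nkx6-2 had none.

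For all 5 Dlx genes the mean change of the lines was negative in both treatments. The linked genes Dlx5 and Dlx6, factors of the face and the limbs, passed in Ctrl and the linked genes Dlx1 and Dlx2, factors of forebrain interneurons, in Paused. The tables have no shared fit, and a difference between the treatments was not tested. Dlx1 in Ctrl had changes of -0.23 and -0.16 (adjusted p = 0.0612 and 0.209). Dlx5 sums were 303, 314, 275 and 278 (WT), 246, 238, 233 and 246 (Smad2_KO1) and 204, 244, 201 and 224 (Smad2_KO2), all knockout libraries below WT, with changes of -0.28 ± 0.09 in Smad2_KO1 (adjusted p = 0.0274) and -0.42 ± 0.09 in Smad2_KO2 (adjusted p = 6.50e-04). Omitting any one of WT replicates 1 and 2, or Smad2_KO1 replicates 1 and 3 ended the call (mean change -0.38 to -0.32 over all omissions). Nor was it called with no flanks. Dlx6 sums averaged 198 ± 11.7 (WT), 157 ± 19.1 (Smad2_KO1) and 156 ± 17.5 (Smad2_KO2), without overlap, with changes of -0.34 ± 0.10 in Smad2_KO1 (adjusted p = 0.0246) and -0.34 ± 0.10 in Smad2_KO2 (adjusted p = 0.0252). It was no longer called without any one of WT replicates 1 and 2, Smad2_KO1 replicates 1 and 3, or Smad2_KO2 replicates 1, 2 and 3 (mean change -0.38 to -0.31 over all omissions). The same was so with DESeq2 or no flanks. No interval was counted for more than 1 of the 48 genes. The Dlx5 interval chr6:6874238-6874438 averaged 149.8 ± 18.8 (WT), 116 ± 14.1 (Smad2_KO1) and 105 ± 9.22 (Smad2_KO2) and changed by -0.36 and -0.50. Without any one of WT replicates 1 and 2, or Smad2_KO1 replicates 1, 2 and 3 it did not pass (mean change -0.49 to -0.38 over all omissions). Its call ended with cyclic loess or a fit of the compared groups alone too. In Paused, Dlx1 sums averaged 422 ± 40.7 (WT), 364 ± 3.21 (Smad2_KO1) and 351 ± 25.4 (Smad2_KO2) and changed by -0.21 and -0.26. This call did not hold without any one of WT replicates 1 and 4, or Smad2_KO1 replicates 1, 2, 3 and 4 (mean change -0.29 to -0.19 over all omissions). It was also not called with cyclic loess, a fit of the compared groups alone, edgeR or DESeq2. Dlx2 sums averaged 577 ± 43.7 (WT), 506 ± 20.8 (Smad2_KO1) and 484 ± 38.3 (Smad2_KO2) and changed by -0.19 and -0.25. Leaving out any one of WT replicate 1, or Smad2_KO1 replicates 2, 3 and 4 ended this call (mean change -0.25 to -0.17 over all omissions). The call ended with cyclic loess, a fit of the compared groups alone, edgeR, DESeq2 or no flanks too.

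Beyond Dlx2 by 7523 bases from its start, chr2:71539131-71539331 in Paused held 185, 188, 186 and 184 (WT), 142, 155, 128 and 144 (Smad2_KO1) and 111, 139, 130.2 and 136 (Smad2_KO2). All knockout libraries were below WT, the change was -0.39 ± 0.10 in Smad2_KO1 (adjusted p = 0.00824) and -0.53 ± 0.10 in Smad2_KO2 (adjusted p = 4.89e-04), and the call held without each library. In Ctrl, chr2:71525895-71526095 near Dlx1 averaged 50.9 ± 7.75 (WT), 34.7 ± 6.72 (Smad2_KO1) and 35.0 ± 3.73 (Smad2_KO2) and changed by -0.55 and -0.52, without overlap, but its call was lost without any one of WT replicates 1, 3 and 4, Smad2_KO1 replicates 1, 2 and 4, or Smad2_KO2 replicates 1, 2 and 3 (mean change -0.59 to -0.44 over all omissions). With DESeq2 it was not called either. Dlx3, a factor of skin and teeth, had an interval outside the gene body that was higher in both treatments. In Ctrl, chr11:95115396-95115596 held 32.0, 34.0, 35.1 and 31.3 (WT), 59.0, 36.0, 50.6 and 46.2 (Smad2_KO1) and 50.1, 44.6, 55.2 and 55.4 (Smad2_KO2), all knockout libraries above WT, with changes of 0.50 and 0.61. In Paused, chr11:95115394-95115594 held 25.9, 35.4, 37.8 and 34.4 (WT), 48.5, 45.3, 51.0 and 43.7 (Smad2_KO1) and 48.9, 47.2, 58.4 and 55.8 (Smad2_KO2), again without overlap, with changes of 0.50 and 0.65. For the Ctrl interval its call was lost without any one of WT replicates 1, 2 and 4, or Smad2_KO1 replicates 1, 3 and 4 (mean change 0.50 to 0.62 over all omissions). Nor was it called with size factors, TMM factors, cyclic loess, a fit of the compared groups alone, edgeR or DESeq2. For the Paused interval its call was lost without any one of WT replicate 1, or Smad2_KO1 replicates 1, 2 and 3 (mean change 0.46 to 0.63 over all omissions). The same was so with size factors, TMM factors, cyclic loess, edgeR or DESeq2. At chr11:95119984-95120184, which spans 1 boundary of the same gene's body, Paused values were lower. The interval averaged 127 ± 24.9 (WT), 97.8 ± 11.5 (Smad2_KO1) and 96.3 ± 7.69 (Smad2_KO2) and changed by -0.36 and -0.38. It lost its call without any one of WT replicates 1, 3 and 4, Smad2_KO1 replicates 1 and 2, or Smad2_KO2 replicates 1, 2, 3 and 4 (mean change -0.52 to -0.28 over all omissions). Its call ended with library totals, cyclic loess, a fit of the compared groups alone or the knockout libraries of a replicate number averaged too. In Dlx1, chr2:71529598-71529798 in Paused averaged 299 ± 34.1 (WT), 249 ± 4.88 (Smad2_KO1) and 237 ± 18.3 (Smad2_KO2) and changed by -0.25 and -0.33. The threshold was missed without any one of WT replicates 1 and 4, Smad2_KO1 replicates 1, 2, 3 and 4, or Smad2_KO2 replicates 2 and 3 (mean change -0.36 to -0.23 over all omissions). It was also not called with library totals, cyclic loess or a fit of the compared groups alone.

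Among Six2, Six3 and Six6, the forebrain and eye factor Six6 had the lowest gene-level fold change of all 48 genes in Paused. Its sums were 607, 517, 502 and 633 (WT), 425, 441, 445 and 458 (Smad2_KO1) and 374, 419, 419.8 and 461 (Smad2_KO2), with no overlap, and the change was -0.35 ± 0.07 in Smad2_KO1 (adjusted p = 7.28e-04) and -0.43 ± 0.07 in Smad2_KO2 (adjusted p = 5.85e-05). The call held without each library and under each other setting but 1. The sum did not pass when a change of 1 or more on the log2 scale was also asked for. In Ctrl its sums averaged 395 ± 64.9 (WT), 347 ± 34.2 (Smad2_KO1) and 347 ± 25.2 (Smad2_KO2) and did not pass. The interval over its printed start window, chr12:72939709-72939909, was also the strongest of the family. In Paused it held 409, 325, 320.4 and 389 (WT), 247, 260.1, 261 and 273 (Smad2_KO1) and 219, 249, 251 and 303 (Smad2_KO2), all knockout libraries below WT, with a change of -0.46 ± 0.10 in Smad2_KO1 (adjusted p = 7.25e-04) and -0.50 ± 0.10 in Smad2_KO2 (adjusted p = 3.41e-04). In Ctrl the interval there averaged 265 ± 38.9 (WT), 214 ± 23.8 (Smad2_KO1) and 216 ± 17.7 (Smad2_KO2), with changes of -0.30 and -0.29 that did not pass. Six3, another eye and forebrain factor, had a lower interval upstream of its gene in Paused. At chr17:85610878-85611078 libraries held 31.3, 32.2, 35.6 and 42.4 (WT), 20.0, 10.9, 25.9 and 19.9 (Smad2_KO1) and 22.0, 17.3, 18.0 and 18.6 (Smad2_KO2), without overlap, with a change of -0.90 ± 0.23 in Smad2_KO1 (adjusted p = 0.00431) and -0.86 ± 0.23 in Smad2_KO2 (adjusted p = 0.00629), and the call held without each library. A second one, chr17:85625386-85625586, changed by -0.55 and -0.66. The omission of any one of WT replicates 1, 3 and 4, Smad2_KO1 replicates 2, 3 and 4, or Smad2_KO2 replicate 1 ended the call (mean change -0.68 to -0.48 over all omissions). The call ended with library totals, a fit of the compared groups alone or DESeq2 too. Six2, a kidney progenitor factor, had no called interval.

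En2, a factor of the midbrain and hindbrain boundary, fell at 1 interval outside its gene body in both treatments. In Ctrl, chr5:28176641-28176841 held 163, 159, 168 and 138 (WT), 117, 134, 120.0 and 111 (Smad2_KO1) and 102, 121, 85.0 and 108 (Smad2_KO2), all knockout libraries below WT, with changes of -0.38 ± 0.12 in Smad2_KO1 (adjusted p = 0.0279) and -0.60 ± 0.12 in Smad2_KO2 (adjusted p = 5.25e-04). The call was lost without any one of WT replicates 1, 2 and 3, or Smad2_KO1 replicates 1, 3 and 4 (mean change -0.55 to -0.44 over all omissions). In Paused, chr5:28176632-28176832 held 104, 74.1, 113 and 75.5 (WT), 61.8, 64.3, 44.1 and 49.7 (Smad2_KO1) and 45.0, 63.0, 44.9 and 58.0 (Smad2_KO2), also without overlap, with changes of -0.72 ± 0.16 in Smad2_KO1 (adjusted p = 0.00137) and -0.78 ± 0.16 in Smad2_KO2 (adjusted p = 6.47e-04), and held without each library. Emx2, a factor of the cerebral cortex and the kidney, fell in Paused over its printed start window. At chr19:59458485-59458685 libraries held 207, 141, 161 and 192 (WT), 127, 112, 105 and 124 (Smad2_KO1) and 108, 106, 126 and 133 (Smad2_KO2), all knockout libraries below WT. The change was -0.56 ± 0.12 in Smad2_KO1 (adjusted p = 9.10e-04) and -0.55 ± 0.12 in Smad2_KO2 (adjusted p = 0.0011), and the call held without each library. A second Emx2 interval, chr19:59469322-59469522, averaged 129 ± 25.8 (WT), 88.3 ± 12.2 (Smad2_KO1) and 90.6 ± 8.21 (Smad2_KO2) and changed by -0.53 and -0.48. Omitting WT replicate 4 ended the call (mean change -0.60 to -0.38 over all omissions). The Emx2 sum averaged 558 ± 74.8 (WT), 457 ± 8.75 (Smad2_KO1) and 467 ± 18.1 (Smad2_KO2) and changed by -0.28 and -0.25. It was no longer called without WT replicate 4 (mean change -0.34 to -0.20 over all omissions). With no flanks it was not called either.

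The Msx1 sum, of a factor of the limbs and teeth, averaged 353 ± 40.6 (WT), 295 ± 6.78 (Smad2_KO1) and 293 ± 43.7 (Smad2_KO2) in Paused and changed by -0.25 and -0.27. Without any one of WT replicates 1 and 4, Smad2_KO1 replicates 1, 2, 3 and 4, or Smad2_KO2 replicates 1 and 2 it did not pass (mean change -0.32 to -0.19 over all omissions). Nor was it called with cyclic loess, DESeq2 or no flanks. That of Barhl1, a factor of the inner ear and the cerebellum, averaged 461 ± 63.5 (WT), 380.3 ± 18.1 (Smad2_KO1) and 380.0 ± 29.9 (Smad2_KO2) and changed by -0.27 and -0.27. This call did not hold without any one of WT replicates 1 and 4, Smad2_KO1 replicate 1, or Smad2_KO2 replicate 3 (mean change -0.33 to -0.20 over all omissions). Its interval chr2:28908195-28908395 averaged 114 ± 10.2 (WT), 81.9 ± 4.94 (Smad2_KO1) and 84.9 ± 9.48 (Smad2_KO2) without overlap. Leaving out any one of Smad2_KO2 replicates 2 and 3 ended this call (mean change -0.48 to -0.40 over all omissions). Msx2 had 1 higher interval in Ctrl, chr13:53470858-53471058, with changes of 0.57 and 0.46, and 1 lower interval in Paused, chr13:53464795-53464995, with changes of -0.45 and -0.55. For the former its call was lost without any one of WT replicates 3 and 4, Smad2_KO1 replicate 1, or Smad2_KO2 replicates 1 and 3 (mean change 0.42 to 0.61 over all omissions). The same was so with size factors, TMM factors, a fit of the compared groups alone, edgeR or DESeq2. For the latter its call was lost without any one of WT replicates 1 and 4, or Smad2_KO1 replicate 3 (mean change -0.58 to -0.39 over all omissions). Emx1 and En1 had none.

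Irx3, a factor of the spinal cord and the heart, had lower sums in Ctrl. They were 255, 240.1, 256 and 275 (WT), 219, 179.9, 216 and 226 (Smad2_KO1) and 191, 218, 198 and 234 (Smad2_KO2), all knockout libraries below WT, with changes of -0.29 ± 0.09 in Smad2_KO1 (adjusted p = 0.0313) and -0.29 ± 0.09 in Smad2_KO2 (adjusted p = 0.0327). It lost its call without any one of WT replicates 1 and 4, Smad2_KO1 replicate 2, or Smad2_KO2 replicates 1 and 3 (mean change -0.32 to -0.25 over all omissions). Its call ended with a fit of the compared groups alone, DESeq2, no flanks or a flank of 20 kb too. At its interval chr8:91806505-91806705 the means were 31.3 ± 2.83 (WT), 19.8 ± 3.27 (Smad2_KO1) and 18.5 ± 4.97 (Smad2_KO2) with changes of -0.64 and -0.77. The threshold was missed without any one of WT replicates 1, 2, 3 and 4, Smad2_KO1 replicates 1, 2 and 3, or Smad2_KO2 replicate 1 (mean change -0.77 to -0.62 over all omissions). It was also not called with no filter on low values or DESeq2. Irx2 had 1 lower interval in Paused, chr13:72636550-72636750, with means of 122 ± 32.3 (WT), 80.4 ± 15.1 (Smad2_KO1) and 75.0 ± 15.0 (Smad2_KO2) and changes of -0.57 and -0.67. The omission of any one of WT replicate 1, or Smad2_KO1 replicate 2 ended the call (mean change -0.78 to -0.49 over all omissions). Irx1 and Irx5 had none.

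Sox1, the early factor of the neural plate, had lower intervals outside its gene body in both treatments, although its sum was not called in either. The sum averaged 529 ± 48.6 (WT), 467 ± 48.2 (Smad2_KO1) and 466 ± 28.8 (Smad2_KO2) in Ctrl and 685 ± 79.9 (WT), 606 ± 12.0 (Smad2_KO1) and 605 ± 50.6 (Smad2_KO2) in Paused. At chr8:12399587-12399787, 4168 bases downstream of the start, the Ctrl libraries held 38.5, 40.3, 31.8 and 45.3 (WT), 15.4, 21.6, 26.2 and 26.6 (Smad2_KO1) and 27.1, 15.5, 23.4 and 24.2 (Smad2_KO2). No knockout library reached WT, and the change was -0.79 ± 0.21 in Smad2_KO1 (adjusted p = 0.00962) and -0.78 ± 0.21 in Smad2_KO2 (adjusted p = 0.0108). The call was lost without any one of Smad2_KO1 replicate 1, or Smad2_KO2 replicate 2 (mean change -0.88 to -0.70 over all omissions). The matching Paused interval, chr8:12399579-12399779, averaged 43.6 ± 10.7 (WT), 26.1 ± 3.50 (Smad2_KO1) and 24.7 ± 3.55 (Smad2_KO2) with changes of -0.69 and -0.77. Omitting any one of WT replicate 1, or Smad2_KO1 replicate 2 ended the call (mean change -0.90 to -0.60 over all omissions). The adjacent, stronger interval averaged 139 ± 14.2 (WT), 104 ± 13.6 (Smad2_KO1) and 107 ± 6.43 (Smad2_KO2) in Ctrl (chr8:12400898-12401098) and 169.8 ± 32.1 (WT), 131 ± 6.96 (Smad2_KO1) and 132 ± 13.3 (Smad2_KO2) in Paused (chr8:12400892-12401092), with changes of -0.42 and -0.37 and of -0.35 and -0.35. For the Ctrl interval its call was lost without any one of WT replicates 1, 2 and 4, Smad2_KO1 replicate 2, or Smad2_KO2 replicates 1, 2 and 3 (mean change -0.47 to -0.35 over all omissions). The call ended with cyclic loess too. For the Paused one its call was lost without any one of WT replicates 1 and 4, Smad2_KO1 replicates 1, 3 and 4, or Smad2_KO2 replicates 1 and 2 (mean change -0.44 to -0.27 over all omissions). With cyclic loess or a fit of the compared groups alone it was not called either.

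The remaining rise was near Tbx5, a factor of the heart and the forelimb. At chr5:119887781-119887981 in Paused the libraries held 16.2, 11.8, 17.3 and 17.2 (WT), 22.8, 39.0, 31.1 and 30.8 (Smad2_KO1) and 35.0, 35.3, 28.1 and 27.4 (Smad2_KO2). All knockout libraries were above WT, the change was 0.93 ± 0.21 in Smad2_KO1 (adjusted p = 0.0018) and 0.97 ± 0.21 in Smad2_KO2 (adjusted p = 0.0013), and the call held without each library. Tbx20 had no called interval, nor did Neurog1, Neurog2, Neurog3, Olig1 and Olig2, the proneural and oligodendrocyte factors.

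Summed by family, all 10 families had a lower mean in the knockout lines than in WT in both treatments. Over all genes the median log2 change was also negative (-0.02 in Ctrl and -0.06 in Paused), with 58.1% and 65.0% of genes negative. In Paused the median gene change was near that for Lhx with Isl1 (-0.05) and Tbx (-0.06). In the other families it was -0.11 (Six2, Six3 and Six6) to -0.17 (Nkx). In Ctrl the difference was -12.3% for Dlx, -11.8% for Sox1, -10.9% for Emx, En, Msx and Barhl1, and -9.37% for Nkx. It was -9.02% for Pax, -7.49% for Six2, Six3 and Six6 together, -5.89% for Irx and -5.40% for Tbx. For Neurog with Olig it was -5.07% and for Lhx with Isl1 -1.12%. In Paused the difference was -14.1% for Six2, Six3 and Six6, -11.7% for Sox1, -11.13% for Emx, En, Msx and Barhl1, and -11.07% for Dlx. It was -10.8% for Pax, -9.44% for Nkx, -8.67% for Irx and -4.665% for Neurog with Olig. For Lhx with Isl1 it was -4.11% and for Tbx -4.01%. In Ctrl the 8 knockout libraries lay wholly below WT for the Dlx family alone (at most 1623 against at least 1649). In Paused this was so for Pax (at most 7135 against at least 7242), Dlx (2137 against 2204) and Six2, Six3 and Six6 (1221 against 1247). In the other families the libraries overlapped. The median gene change of a family kept its sign under each scaling tried, except for Lhx with Isl1 in Ctrl, which was 0.01 with the deposited scaling and -0.07 with size factors.

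**Figure D4:**
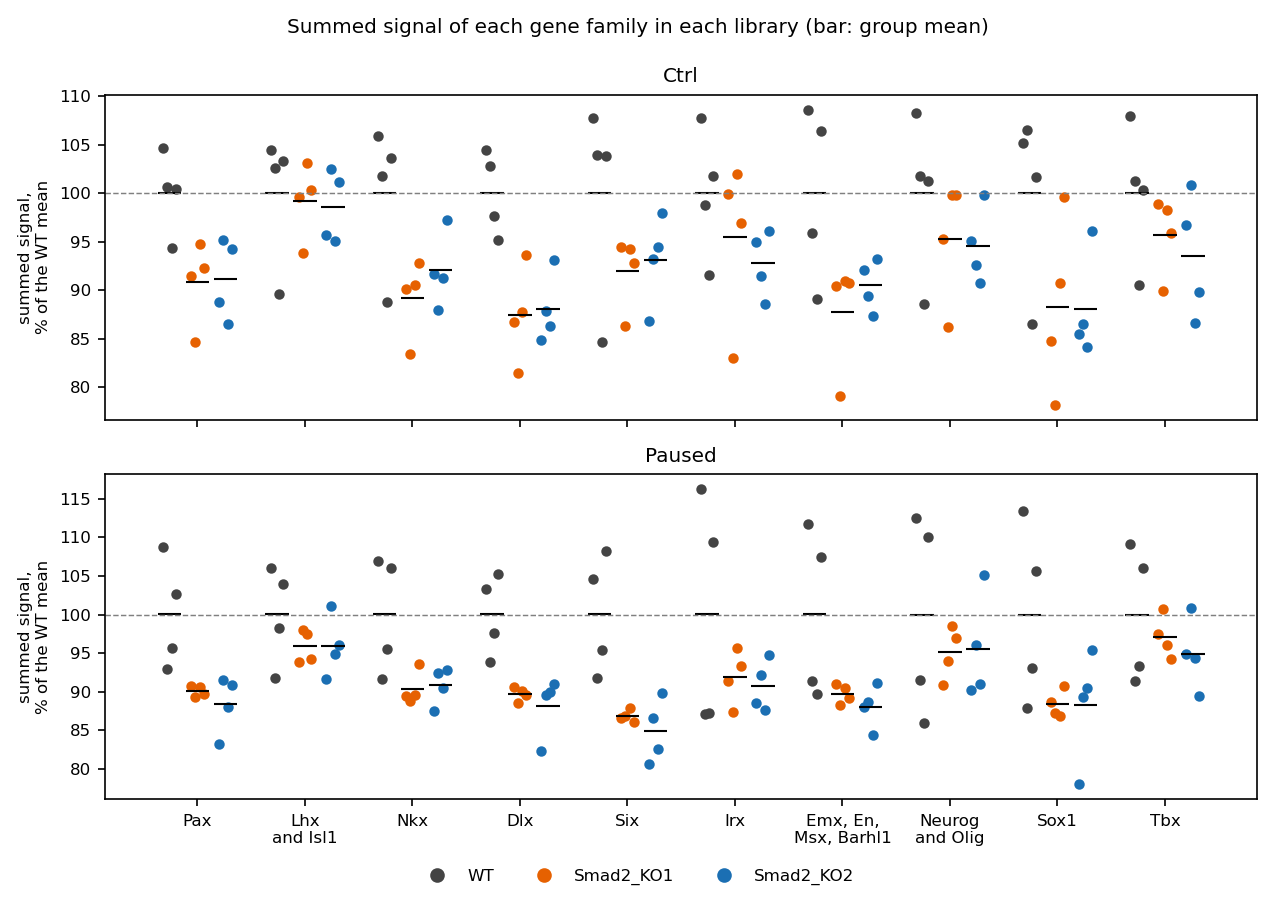
Summed signal of each family in each of the 24 libraries as a percentage of the WT mean of that treatment (y axis), by family (x axis); points are libraries and bars are group means. The Pax and Dlx points of the knockout lines, and those of Six2, Six3 and Six6, lie below all WT points in Paused, while those of Lhx with Isl1 lie among them in Ctrl.

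Summed over all 48 genes, WT libraries in Ctrl held 21650 to 25173 normalized reads, with replicate 3 the lowest, and the group means were 23738 ± 1490 (WT), 21915 ± 1131 (Smad2_KO1) and 21989 ± 705 (Smad2_KO2) (SD, n = 4 each). In Paused the means were 27304 ± 2293, 25003 ± 178 and 24721 ± 869. There WT replicates 1 and 4 were high (29708 and 28792), and replicates 2 and 3 (25046 and 25669) lay among or near the knockout libraries. The groups overlapped in both treatments. Leaving out single libraries moved counts. Without WT replicate 4 or Smad2_KO2 replicate 1, 12 intervals rather than 22 were called in Ctrl (4.92% and 5.35% of all intervals were). Without WT replicate 1 or 4, 6 gene sums rather than 11 were called in Paused (17.5% and 16.2% of all genes were). Without WT replicate 3, 13 gene sums rather than 5 were called in Ctrl (8.52% of all genes were).

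Between the tables, 257 intervals of these genes matched one to one. Of the 21 matched intervals called in Ctrl, 13 were called the same way in Paused (8 lower and 5 higher), which is 61.9% of the Ctrl calls and 39.4% of the 33 matched Paused calls. Over all 215826 matched intervals the shares were similar, with 59.2% of the Ctrl calls and 32.8% of the Paused calls shared. None of these genes' intervals was called the opposite way, nor was any in the whole table. All 21 had the same sign in Paused, and 32 of the 33 had it in Ctrl, against 97.8% and 97.1% over all matched calls. The tables come from separate libraries but the same lines. The interaction of knockout and inhibitor was not tested.

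**Figure D5:**
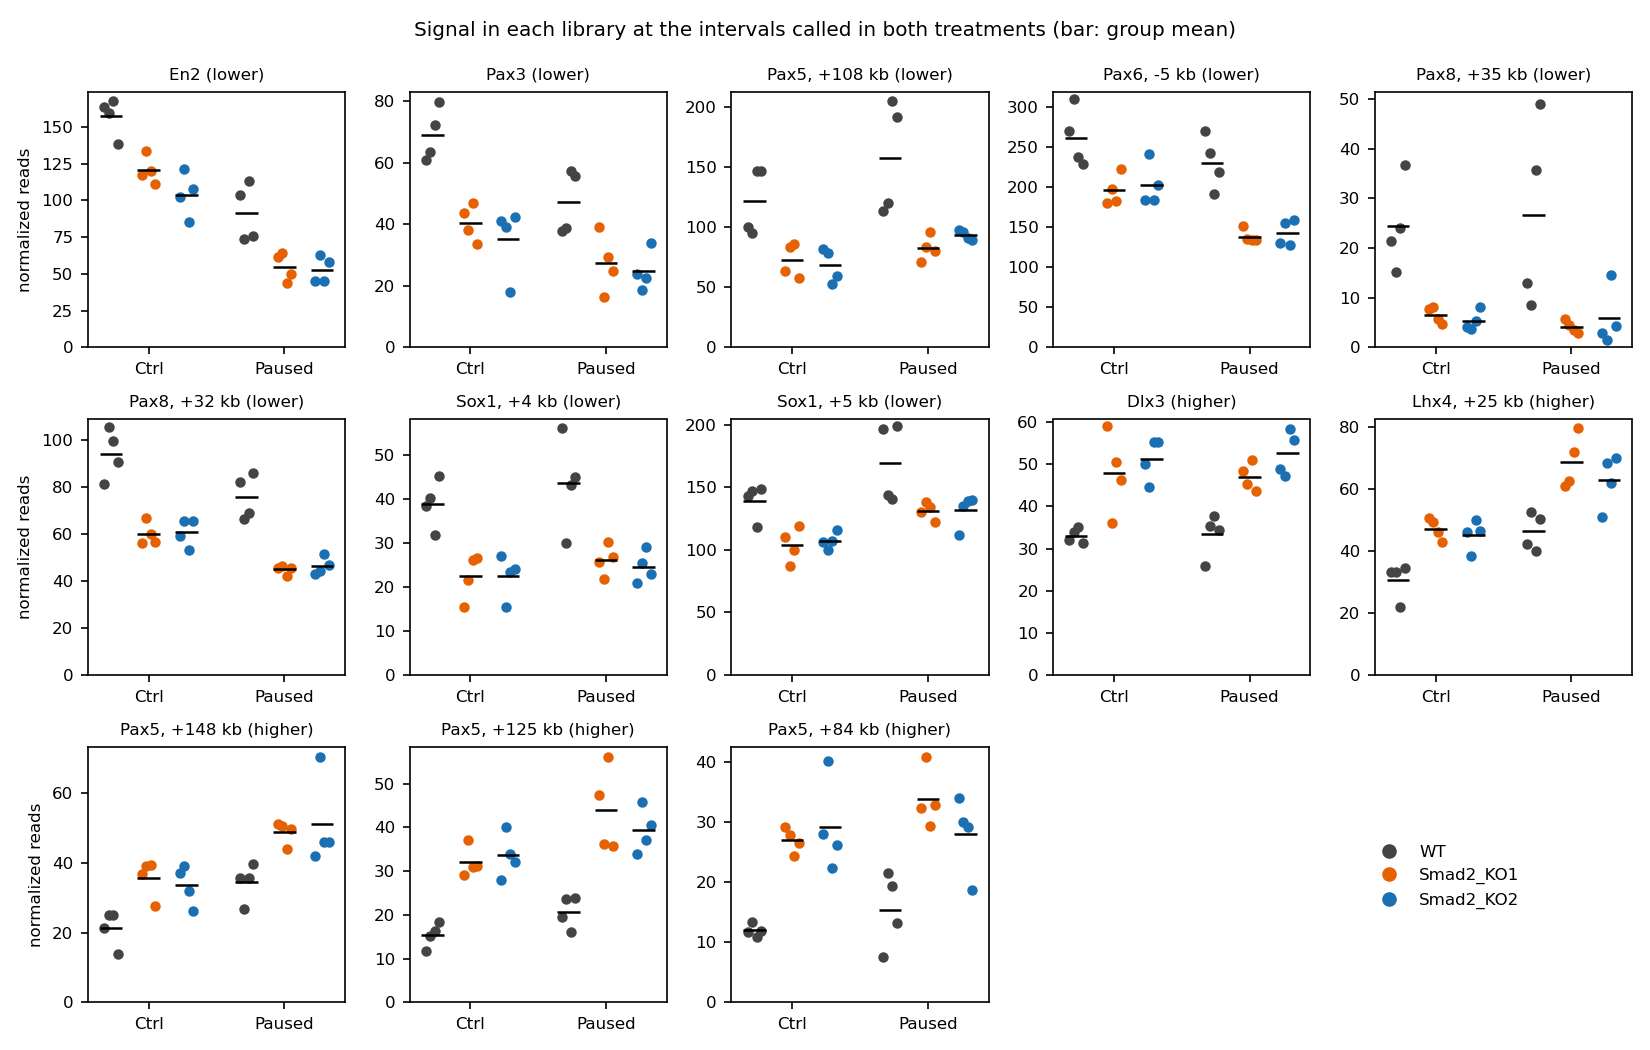
Normalized reads (y axis) in each library at the 13 intervals called the same way in both treatments, with 1 panel per interval, its distance from the start where known, and bars at group means. At Pax8 (+32 kb) the Ctrl knockout libraries lie between 53.1 and 66.8 and the WT libraries between 81.2 and 106.

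The tables were scaled separately, so levels in Ctrl and Paused are given side by side without a test. They also list different intervals, with 97 Ctrl and 91 Paused intervals of these genes unmatched. Sums over a gene, a family or all 48 genes therefore do not compare the treatments. The median log2 ratio of Paused over Ctrl over the matched intervals was 0.27 in WT, 0.23 in Smad2_KO1 and 0.20 in Smad2_KO2, against 0.08, 0.10 and 0.11 over all 215826 matched intervals. The largest ratio in WT was near Nkx2-5, a heart factor. That interval held 43.8, 44.8, 31.8 and 47.5 (WT), 48.7, 37.0, 43.1 and 50.8 (Smad2_KO1) and 64.1, 53.7, 60.6 and 67.4 (Smad2_KO2) in Ctrl (chr17:26835993-26836193) and 157, 146, 121 and 132 (WT), 162, 139, 153 and 134 (Smad2_KO1) and 189, 145, 167 and 168 (Smad2_KO2) in Paused (chr17:26836041-26836241). Every Paused library was above every Ctrl library, in all 3 lines, and the log2 ratio was 1.70 in WT, 1.69 in Smad2_KO1 and 1.43 in Smad2_KO2. A Pax5 interval, chr4:44698337-44698537 and chr4:44698326-44698526, averaged 16.9 in WT in Ctrl and 54.1 in Paused. WT means were lower in Paused upstream of Lhx9, where chr1:138850183-138850383 averaged 34.5 in Ctrl and chr1:138850201-138850401 15.5 in Paused, and at the called En2 interval, with 157 and 91.6.

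In the 38 genes with a start window, most called intervals lay outside it, as did most tested intervals. The window is short, so an interval outside it can still be near a start. The called Dlx1 interval chr2:71529598-71529798, for example, lay just past the Dlx1 window, chr2:71529195-71529494. Away from the start windows, in genes that have one, 9 of 259 tested intervals were lower in Ctrl and 21 of 261 in Paused. Start windows held 23 intervals, of 22 genes, in each table; 0 of these were called lower in Ctrl by limma (background 3.2%) and 4 in Paused (background 4.92%), with none higher. At an unadjusted p under 0.05 in both lines, 4 were lower in Ctrl. There edgeR called 3 lower (5.19% of all intervals) and DESeq2 2 (3.14%). In Paused edgeR called 9 lower (9.02% of all intervals) and DESeq2 5 (6.51%). Of the 15 lower intervals in Ctrl, 9 lay inside and 6 outside a gene body. Of the 29 in Paused, 16 lay inside, 11 outside and 2 across a boundary of the gene body, at either side. Of the higher intervals, 6 of 7 in Ctrl and 7 of 9 in Paused lay inside a gene body. Of all tested intervals of these genes, 215 of 350 in Ctrl and 216 of 344 in Paused did. A difference in location was not tested. The strongest interval of each of the 48 genes was lower in 2 genes in Ctrl (background 3.2%) and 5 in Paused (background 4.92%), and higher in 0. In class 10 of level, 4 of 56 intervals of these genes were lower in Ctrl and 9 of 55 in Paused.

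The lists below are to be read against the share of all genes called. By limma 4.41% of all genes were lower and 2.77% higher in Ctrl, and 15.9% and 5.94% in Paused. By edgeR 5.41% were lower and 5.72% higher in Ctrl, and 10.4% and 11.9% in Paused. DESeq2 called 4.74% of all genes higher in Ctrl. Relatives of these genes that are not among the 48 include Pax4, Lhx1 and Sox2. They gave 4 lower and 1 higher of 33 gene sums in Ctrl and 9 lower and 0 higher in Paused. Their median was -0.12 in both treatments. Barhl2, Nkx1-2 and Pax4 were lower in both, and Tbx3 was the higher one in Ctrl. Of 14 genes of Polycomb proteins, Ezh1 was lower in Ctrl, and Cbx7 and Ring1 in Paused, with medians of -0.00 and -0.01. Among the 7 stem cell markers limma called none in Ctrl, where 1 was higher at an unadjusted p under 0.05 and edgeR and DESeq2 each called 1 higher, and Klf4 was higher and Nanog and Sox2 lower in Paused, where edgeR called 2 higher and 0 lower. Of 4 trophoblast markers, Eomes was lower in Ctrl and Cdx2 and Tfap2c in Paused, and of 5 primitive endoderm markers Gata4 was lower in Paused (by edgeR 1 marker was higher and 0 lower). Of 4 fibroblast markers Thy1 was lower in both. Summed signal of the trophoblast list was 1802 to 1857 in WT and 1609 to 1798 over the knockout lines in Ctrl, and 1913 to 2251 and 1791 to 1849 in Paused. For primitive endoderm it was 2426 to 2825 in WT and 2316 to 2634 in the knockout lines in Ctrl. None of these lists was at 0. Their part in the results was not tested.

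In the authors' deposited table, which compares the 8 knockout libraries with the 4 WT libraries, 44 intervals of these genes in Ctrl had a false discovery rate under 0.05 (36 lower and 8 higher; 12.4%, against 12.2% of all). In Paused 72 did in the authors' deposited table (58 lower and 14 higher; 20.7%, against 21.6% of all).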

How the data were processed

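Libraries were ATAC-seq of 50000 cells each, and the deposited tables hold 1 row per interval with a value for each of 12 libraries. Per the submitters' processing notes, FastQC, Trim Galore, Bowtie2 2.4.1, MACS3 3.0.3 and DiffBind 3.16.0 were used with build mm10; settings, duplicate handling and the Tn5 shift are not given in the sources used here. The authors' deposited values are a normalized signal, reads divided by 1 factor per library; at least 99.4% of the values in each column were whole multiples of 1 step. For 20 of the 24 columns this gave back whole reads, and for 4 the step was too near 1 to be sure. The log2 fold, p-value and false discovery rate columns in the authors' deposited tables compare knockout with WT.

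Here limma 3.58.1 (R 4.3.3, trend) was fitted to log2(value + 1) over all intervals with a value of 10 or more in at least 4 libraries, with all 12 libraries of a table in 1 fit, and p-values were Benjamini-Hochberg adjusted over the table. A fold change on this scale understates the change of low intervals. All 354 and 348 intervals were counted, of which 350 and 344 passed the filter. Gene sums add the values of all intervals within 5 kb of a gene body, for every protein-coding gene, tested in the same way. The script was tested on simulated data. Alternatives were other scalings (DESeq2 1.42.0 size factors, TMM, library totals, cyclic loess), edgeR 4.0.16 and DESeq2 on the recovered reads, other filters, flanks, groupings and each library left out; averaging the knockout libraries of a replicate number was added after the data were seen. The tables were scaled separately and share no fit.

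The 48 genes, the families and the lists were chosen with earlier results of these data known. Named were all gene sums, up to 6 lower and 6 higher called intervals per treatment by the smaller change of the lines, the strongest interval of each family and the intervals at start windows; the other called intervals were named after their values were seen. Start windows are from RefSeq (GRCm38.p6). Lhx5, En2, Dlx6, Dlx5, Olig1, Irx5, Tbx5, Irx1, Dlx3 and Pax3 have no start window here. Interval sequences and exons were not used here.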

Additional observations from a re-analysis of the deposited data

Results flagged for a closer look

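In each group of 4 libraries, the highest or lowest library was compared with the other 3 by Dixon's ratio. This was done for 288 groups of gene sums and 132 of the intervals named, and 20 of these 420 groups held a library that stood apart, where chance gives about 21. The library that stood apart was from WT in 6, Smad2_KO1 in 8 and Smad2_KO2 in 6.

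Among Ctrl gene sums, En2 in Smad2_KO2 replicate 3 was 371.8 normalized reads (others 408.6 to 413.9). Irx5 in Smad2_KO1 replicate 2 was 415.3 (505.9 to 517.2), and its interval chr8:92356125-92356325 in the same library was 297.1 (374.8 to 389.8). Pax7 in that library was 687.8 (791.8 to 801.6). Isl1 in WT replicate 3 was 593.6 (745.5 to 772.1), and Six2 in the same library was 508.2 (601.0 to 616.3). Lhx4 in Smad2_KO1 replicate 1 was 386.4 (377.7 to 378.6). Pax8 in Smad2_KO2 replicate 2 was 430.5 (370.8 to 376.8).

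Among Paused gene sums, Dlx5 in WT replicate 2 was 374.6 (437.2 to 447.6), and Neurog3 in WT replicate 3 was 308.6 (424.0 to 439.7). In Smad2_KO1, Emx1 in replicate 3 was 538.2 (497.5 to 500.8), Lhx3 in replicate 3 was 466.5 (447.7 to 448.5) and Lhx2 in replicate 1 was 659.4 (694.1 to 696.2). In Smad2_KO2, Lhx2 in replicate 1 was 616.3 (695.8 to 710.2), Pax3 in replicate 1 was 593.3 (645.7 to 654.5) and En2 in replicate 3 was 437.8 (463.4 to 467.9).

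At single intervals, Pax3 at chr1:78140520-78140720 in Smad2_KO2 replicate 3 was 18.06 in Ctrl (39.13 to 42.27). Lhx4 at chr1:155717435-155717635 in WT replicate 3 was 21.9 in Ctrl (33.11 to 34.51). In Paused, Lhx4 at chr1:155704674-155704874 in WT replicate 3 was 19.42 (10.59 to 10.79), and Neurog2 at chr3:127634201-127634401 in Smad2_KO1 replicate 1 was 293.6 (335.7 to 342.5). The call at the Pax3 interval held without that library, the Ctrl call at Lhx4 was lost without WT replicate 3, and the Paused call at Lhx4 held without it.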

How the results depend on the processing

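No single call changed its sign: of 1848 values of single called intervals and gene sums under the alternatives, 1539 stayed called and 309 did not, with 0 of opposite sign. The lower majority of the Ctrl calls turned without WT replicate 1, to 9 higher and 8 lower, and the sign of the Lhx with Isl1 median in Ctrl turned with size factors, from 0.01 to -0.07. The setting that also asked for a change of 1 or more on the log2 scale is left out of these counts. Of 22 called intervals in Ctrl 6, and of 38 in Paused 14, were called without each library and in every other setting. Of the gene sums, Pax3 in Ctrl and Pax3, Pax6, Pax7 and Six6 in Paused were. The weak Pax8 interval was called in each of the 8 omissions of a table where it could be tested. The cause of the changes below was not tested, beyond the smaller or larger sets that some settings use by construction.

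In Ctrl, 22 called intervals became 60 with the knockout libraries as 1 group (17.1%, against 17.6% of all intervals). They became 42 with those of a number averaged (12.0%, against 12.4%) and 36 with a flank of 20 kb (6.73%, against 7.15%). There were 4 when a change of 1 or more on the log2 scale, up or down, was also asked for. With a library left out there were 12 to 21. The count was 12 without WT replicate 4 (3.45%, against 4.92%) or Smad2_KO2 replicate 1 (3.47%, against 5.35%). It was 14 without Smad2_KO2 replicate 3 (4.01%, against 5.89%). The 5 gene sums (7.18% of all genes were called) became 17 with size factors or TMM (18.0% and 16.8% of all genes), 8 with cyclic loess (10.5%), 3 with DESeq2 (9.03%), 16 as 1 group (17.2%), 9 averaged (12.8%), 2 without flanks (6.50%), 0 at the larger fold and 2 to 13 with a library left out (2 without WT replicate 1 or 2, Smad2_KO1 replicate 1 or Smad2_KO2 replicate 1 or 3, 3 without Smad2_KO1 replicate 3, 13 without WT replicate 3, where 8.52% of all genes were called). Smad2_KO1 alone went from 42 to 6 at the larger fold and 25 to 41 on omission (25 without WT replicate 4 or Smad2_KO1 replicate 1, 26 without Smad2_KO1 replicate 2). Smad2_KO2 alone went from 31 to 6, and 16 to 32 on omission (18 without WT replicate 4, 16 and 17 without Smad2_KO2 replicate 1 and 3). With all libraries, 11.6% of all intervals passed in Smad2_KO1 and 10.7% in Smad2_KO2. Shares of all intervals in single lines under the alternatives are not given here, so these counts cannot be set against the background.

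In Paused, 38 called intervals became 59 with edgeR (17.2%, against 14.5% of all intervals) and 89 as 1 group (25.9%, against 28.7%). They became 25 without flanks (10.9%, against 13.9%) and 2 at the larger fold. On omission there were 25 to 45, with 25 without Smad2_KO1 replicate 2 (7.27%, against 9.79%). The 11 gene sums (21.9% of all genes) became 28 with size factors (45.4%), 26 with TMM (42.4%), 7 with DESeq2 (18.4%), 19 as 1 group (38.1%), 0 at the larger fold and 6 to 17 on omission (6 without WT replicate 1 or 4, 17 without WT replicate 2, 7 without Smad2_KO1 replicate 1 or 4). Smad2_KO1 alone went from 54 to 5 at the larger fold and 34 to 65 on omission (34 without Smad2_KO1 replicate 2). Smad2_KO2 alone went from 53 to 86 with size factors, 83 with TMM, 81 with edgeR, 4 at the larger fold and 38 to 66 on omission. With all libraries, 19.4% of all intervals passed in Smad2_KO1 and 19.3% in Smad2_KO2, and single-line shares under the alternatives are not given here. In both lines, 4.92% of all intervals were lower and 9.01% higher with the deposited scaling. These shares were 8.87% and 5.90% with size factors, 8.26% and 6.21% with TMM, and 9.02% and 5.50% with edgeR.

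The median log2 change of intervals went from -0.11 in Ctrl to -0.19 with size factors, -0.18 with TMM, -0.18 with edgeR and -0.19 with DESeq2 (-0.16 to -0.10 on omission). With a flank of 20 kb it was -0.071 in Ctrl. In Paused it went from -0.11 to -0.22, -0.20, -0.20 and -0.21 in the same order, to -0.078 with library totals and -0.064 with a flank of 20 kb (-0.15 to -0.060 on omission: -0.060 without WT replicate 1, -0.15 without WT replicate 3). For gene sums it went from -0.13 to -0.20 with size factors or TMM in Ctrl (-0.16 to -0.079 on omission), and from -0.12 to -0.23, -0.22, -0.068 (edgeR) and -0.070 (DESeq2) in Paused (-0.16 to -0.088 on omission). Size factors moved the median of all intervals in Paused from 0.12 to 0.01; the median of these genes less that of all was -0.23 with both scalings, and -0.19 with both in Ctrl. With cyclic loess that distance was -0.12 in Paused and -0.16 in Ctrl, with a flank of 20 kb -0.18 and -0.15, and without WT replicate 4 -0.16 in both.

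With the replicate block, 23 intervals and 5 gene sums were called in Ctrl (7.97% of all intervals and 8.32% of all genes were). In Paused 41 and 12 were called (16.2% and 25.4% of all), and all 76 single calls were kept. Whether the numbers pair the samples was not settled. Correlations of same-numbered libraries were -0.00568 to 0.109 in Ctrl and -0.00744 to 0.187 in Paused. Those of libraries with different numbers were -0.102 to 0.0838 and -0.134 to 0.101. The own number was the best partner in 8 of 24 line comparisons in Ctrl and 13 of 24 in Paused, where 1 of 4 candidate libraries has that number. Between the knockout lines in Paused, the same-numbered correlations were 0.0885, 0.187, 0.034 and 0.111. With 11.5 to 20.0 M reads in intervals per library, weak intervals rest on few reads, and a change there was detectable only when large.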
